A study of Mus musculus with 24 samples.

Results

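The cytosolic and mitochondrial heat shock chaperones of the mouse kidney were taken as 39 genes chosen by symbol. They were kept if their mean normalized count over all 24 libraries was at least 10. All 39 passed, out of 17333 genes that did so and 56748 gene identifiers in the table. The genes are HSP70 and HSP110 proteins, their J-domain partners, HSP90 proteins and their co-chaperones, small heat shock proteins with Bag3, the mitochondrial chaperonin, the cytosolic chaperonin CCT and the regulator Hsf1. Whole-kidney RNA was sequenced after poly A selection from 4 groups of 6 libraries, which were active males, inactive males, active females and inactive females. Active and inactive mean that the kidneys were taken in the middle of the animals' active or inactive period. The labels give no strain, genotype, age, clock time, feeding or light schedule, and no treatment other than the period. They do not say that the libraries of a group come from separate animals, so the p-values below measure the spread between these libraries, which may be partly technical.

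Chaperones bind unfolded stretches of other proteins and keep them from clumping. HSP70 proteins do so in cycles of ATP use that J-domain proteins start and HSP110 proteins help to reset, and client proteins such as kinases and steroid receptors pass from HSP70 to HSP90 with the help of co-chaperones. CCT folds actin and tubulin in a closed chamber in the cytosol, and HSP60 with its lid HSP10 does the same inside mitochondria, which fill the tubule cells of the kidney. When unfolded proteins build up, the transcription factor HSF1 binds heat shock elements, inverted repeats of the letters GAA, and switches on many of these genes, Hspa1a and Hspa1b most of all. Rhythms of heat shock genes with feeding, body temperature and rest have been described in mouse liver and other organs.

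All 24 libraries had similar depth, from about 31000000 to 39300000 reads recovered from the normalized counts. The clock genes Arntl and Npas2 were higher, and Dbp and Nr1d1 lower, in the active than in the inactive period in both sexes. Kidney genes were abundant in every library. Of 6 adrenal genes, Cyp11b1, Th and Dbh were listed at 0 in all libraries. The sum of the 6 was 141 to 213 in active males and 136 to 231 in inactive males. It was 175 to 225 in active females and 188 to 252 in inactive females. The sum of 4 fat cell genes was 48.7 to 821 in active males and 187 to 636 in inactive males. In females it was 54.6 to 1303 in the active and 82.8 to 1159 in the inactive period. Of 11 immediate early genes, which respond within minutes to stimulation or handling, 0 were higher and 3 lower in active than in inactive males, and 1 was higher and 0 lower in active than in inactive females. Their summed level was 3442 to 19035 in active males, 5791 to 29681 in inactive males, 4894 to 16333 in active females and 4539 to 7464 in inactive females. The summed level of 5 red blood cell genes was 5524 to 7251 in active males and 2306 to 5242 in inactive males, which did not overlap, and it was 2627 to 8294 in active females and 1327 to 6883 in inactive females. None of the 5 blood genes passed the test in either sex. The part of the adrenal, fat cell, immediate early and blood genes in the chaperone results was not tested. In whole-kidney RNA, fewer cells of a type and less RNA per cell cannot be told apart.

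Per kilobase of exon, the constitutive HSP70 Hspa8 had the highest mean level over the 24 libraries, with 17576 normalized counts per kilobase. The constitutive HSP90 Hsp90ab1 followed with 14241, the mitochondrial HSP60 Hspd1 with 10965, the mitochondrial HSP70 Hspa9 with 6874 and the inducible HSP90 Hsp90aa1 with 5938. The HSP10 lid Hspe1 stood at 4691 and the mitochondrial HSP90 Trap1 at 3225. The stress-inducible pair was far lower on the same scale, with 795 for Hspa1b and 276 for Hspa1a. The lowest were Hspa2, an HSP70 best known from the testis, with 78.1, the small heat shock protein Hspb8 with 93.2 and Hsf1 with 98.6. The 39 genes together made up 1.26 ± 0.16% of all normalized counts in active males, 1.03 ± 0.13% in inactive males, 1.06 ± 0.075% in active females and 0.797 ± 0.074% in inactive females (mean ± SD, n = 6 each).

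In both sexes the 2 cytosolic HSP90 genes, Hspa8 and most HSP90 co-chaperones were higher in kidneys of the active period than in kidneys of the inactive period, and no chaperone was called lower. Of the 39 genes 15 were higher and 0 lower in active than in inactive males, where 8.43% of all 17333 tested genes were higher, 6.95% were lower and 15.4% were called in either direction. In active against inactive females 21 were higher and 0 lower, where 7.97% of all tested genes were higher, 6.98% were lower and 15.0% were called. The median log2 fold of the 39 genes was 0.26 in males, where that of all tested genes was 0.01, and 0.24 in females, where it was -0.0016. All calls come from limma fitted on log2(normalized count + 1) over all 24 libraries, at an adjusted p under 0.05 (Benjamini-Hochberg over all tested genes), and log2 folds are given ± SE. The fit gives each gene 1 spread shared by all 4 groups, so an SE in 1 sex also rests on libraries of the other. In females 12 of the 39 genes had every active library above every inactive one, where 4.40% of all tested genes did. In males 0 of the 39 did, where 2.28% of all tested genes did.

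**Figure D1:**
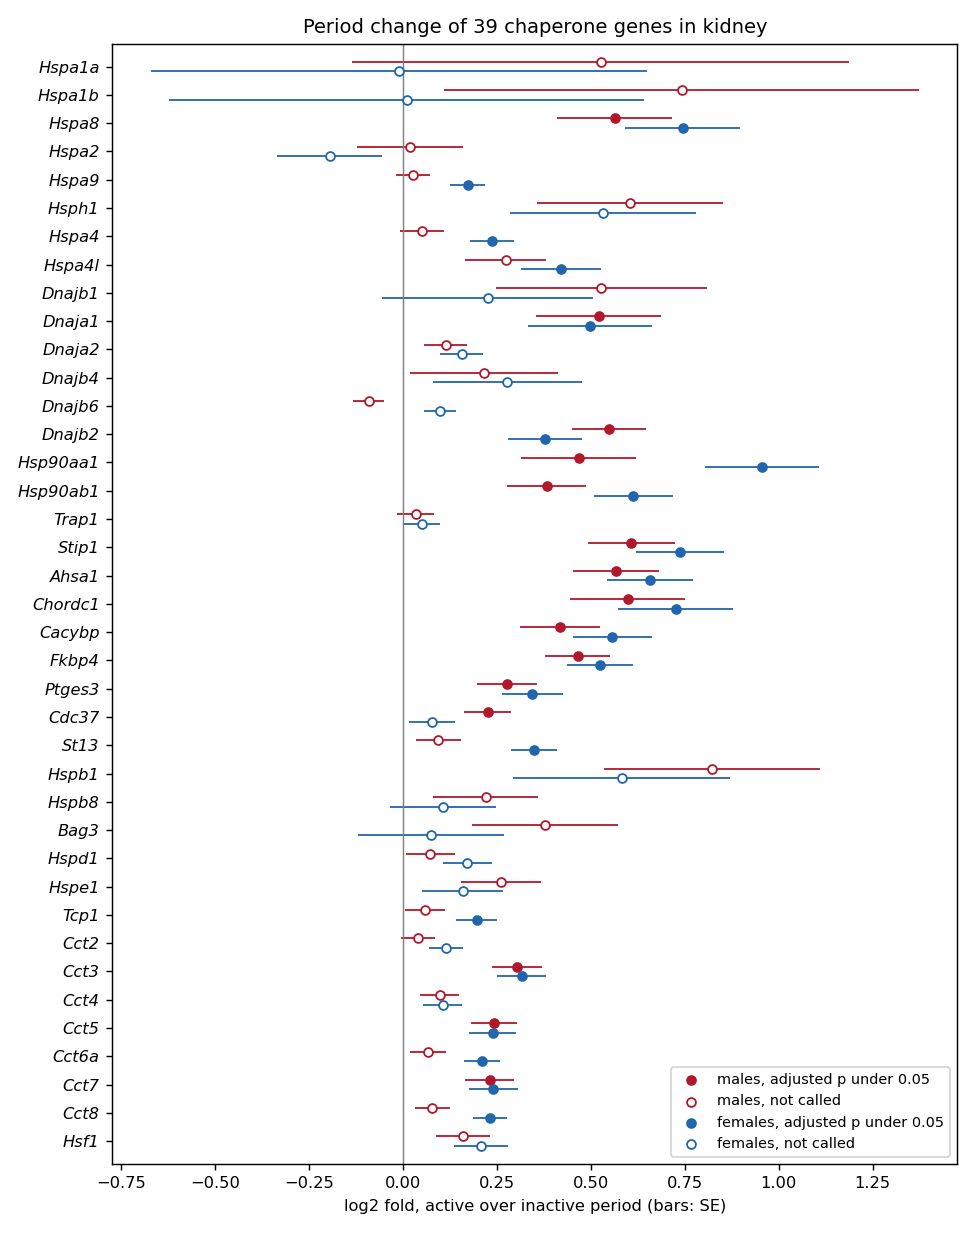
Log2 fold of each of the 39 chaperone genes in the active over the inactive period, with its SE, for males (red) and females (blue); filled points have an adjusted p under 0.05. The filled points all lie to the right of 0, and the stress-inducible Hspa1a and Hspa1b have the widest bars, with SE of 0.66 and 0.63.

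The calls in the 2 sexes covered many of the same genes. Of the 15 genes called in males 14 were also called in females, which is 93.33% of the male and 66.67% of the female calls. These 14 were Hspa8, Dnaja1, Dnajb2, Hsp90aa1, Hsp90ab1, Stip1, Ahsa1, Chordc1, Cacybp, Fkbp4, Ptges3, Cct3, Cct5 and Cct7. Cdc37, which brings protein kinases to HSP90, was called in males and not in females. Hspa9, Hspa4, Hspa4l, St13, Tcp1, Cct6a and Cct8 were called in females and not in males. The male and female comparisons share no library, but the fit shares each gene's spread over all groups. The calls in the 2 sexes are therefore not independent. How far they overlap among all tested genes was not counted.

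Hspa1a and Hspa1b encode the 2 stress-inducible HSP70 proteins, which are nearly identical and lie side by side. Their promoters, which lie largely outside the RNA, are shown because they are nearly identical too. Both windows run from 250 bases before the transcription start to 30 bases after it (RefSeq, GRCm38.p6), Hspa1a at chr17:34972127-34972406, minus strand, and Hspa1b at chr17:34959209-34959488, minus strand. Capitals mark the 4 of 280 positions at which they differ, an identity of 98.6%.
Hspa1a: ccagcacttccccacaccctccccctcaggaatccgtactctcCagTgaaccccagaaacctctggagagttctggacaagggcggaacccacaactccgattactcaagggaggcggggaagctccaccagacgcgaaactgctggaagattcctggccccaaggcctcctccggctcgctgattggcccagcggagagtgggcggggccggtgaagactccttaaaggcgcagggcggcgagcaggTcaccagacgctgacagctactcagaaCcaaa
Hspa1b: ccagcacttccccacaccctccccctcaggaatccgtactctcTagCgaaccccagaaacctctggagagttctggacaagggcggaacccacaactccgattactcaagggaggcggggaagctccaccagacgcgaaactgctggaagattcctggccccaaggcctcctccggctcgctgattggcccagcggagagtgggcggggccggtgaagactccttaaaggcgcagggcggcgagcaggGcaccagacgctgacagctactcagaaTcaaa
In their transcripts 58.8% of the 50-base stretches of Hspa1a also occur in Hspa1b, and 62.3% of those of Hspa1b occur in Hspa1a. The split of reads between the pair is therefore uncertain, and their sum is given as well.

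Neither gene of the pair passed the test for the period. Hspa1b had a lowest, median and highest normalized count of 846, 2758 and 8298 in active males and 378, 2244 and 5939 in inactive males. In females the same values were 680.2, 1313 and 1872 in the active and 982, 1244 and 1581 in the inactive period. The active and inactive groups overlapped in both sexes, and the male libraries covered a far wider range than the female ones. The log2 fold was 0.74 ± 0.63 in males (adjusted p = 0.463, limma) and 0.01 ± 0.63 in females (adjusted p = 0.996), with a 95% interval of -0.58 to 2.06 in males and -1.31 to 1.33 in females. Hspa1a had values of 249, 1046 and 3427 in active males and 172, 929 and 2654 in inactive males. It had 228, 312 and 451 in active females and 213, 319 and 590.0 in inactive females. Its log2 fold of 0.53 ± 0.66 in males and -0.01 ± 0.66 in females left a change of more than 2-fold in either direction within the female 95% interval of -1.39 to 1.37. The SD of its log2 counts was 1.47 in active and 1.66 in inactive males, but 0.36 and 0.49 in females. For Hspa1b it was 1.35 and 1.62 in males against 0.59 and 0.24 in females. The fit shares 1 spread over all 4 groups, so the female intervals of both genes also carry the male spread.

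**Figure D2:**
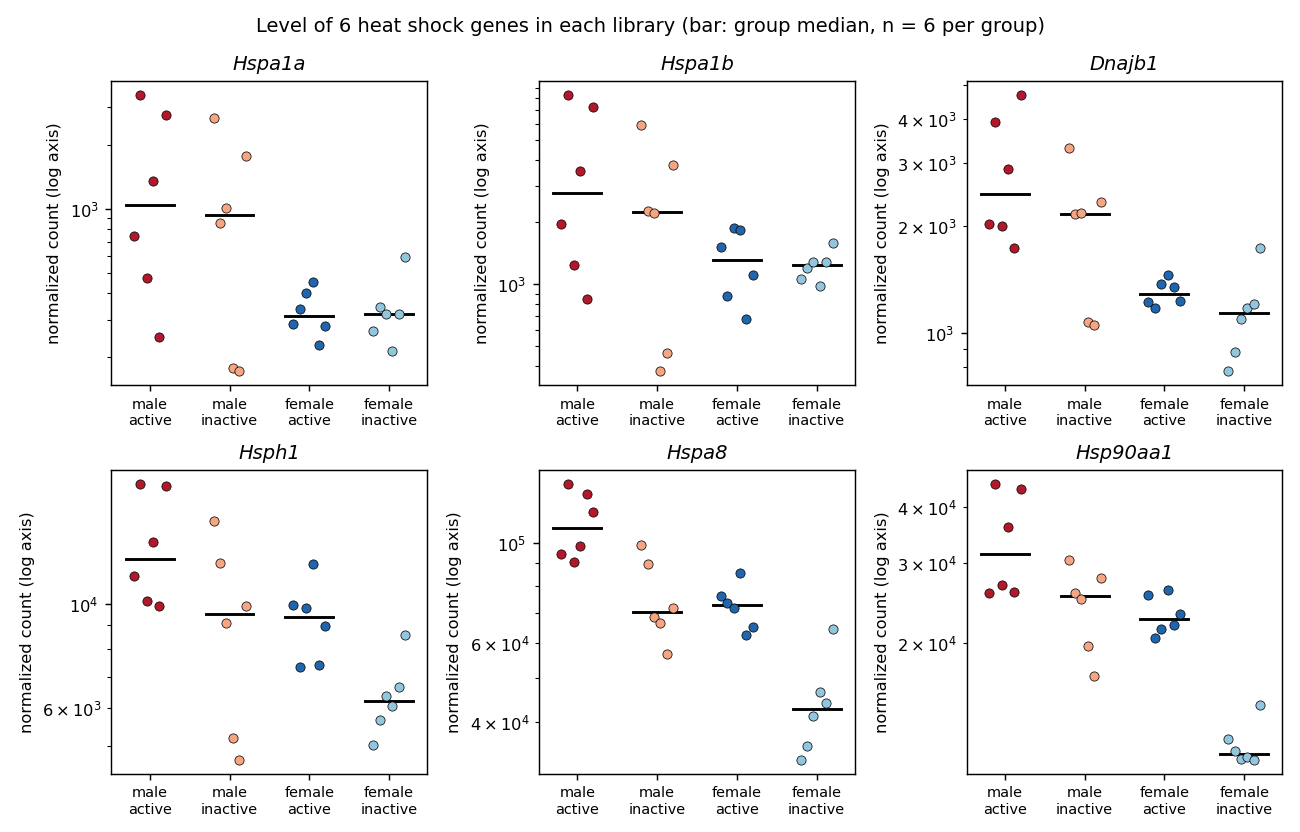
Normalized count, on a log axis that differs between panels, of 6 heat shock genes in each library of active males, inactive males, active females and inactive females; each point is a library and the bar is the median of 6. Hspa1a and Hspa1b spread 13.8-fold and 9.81-fold among active males but 1.98-fold and 2.75-fold among active females, and Hsp90aa1 parts active from inactive females without overlap.

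Hspa8, the constitutive HSP70 and the most abundant chaperone here, was called in both sexes. It had a lowest, median and highest count of 90392, 107764 and 135300.0 in active males and 56588, 70082 and 98801 in inactive males. Female values were 62335, 72566 and 85847 in the active period and 32956, 42671 and 64196 in the inactive period. In each sex only the highest inactive library reached into the active range. The change was 1.48-fold in males (log2 fold 0.56 ± 0.15, adjusted p = 0.0166, limma) and 1.67-fold in females (log2 fold 0.74 ± 0.15, adjusted p = 0.00182). The active-male median was also the highest of the 4 groups, and the inactive-female median the lowest.

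Among the HSP110 proteins, which exchange the nucleotide on HSP70, Hspa4 and Hspa4l were called in females. Hspa4l had 2655 ± 293 normalized counts in active females and 1981 ± 182 in inactive females (mean ± SD, n = 6), a log2 fold of 0.42 ± 0.11 with a limma adjusted p of 0.00807. In males its log2 fold was 0.27 ± 0.11 (adjusted p = 0.0839). Hspa4 had a log2 fold of 0.24 ± 0.06 in females (adjusted p = 0.00536) and 0.05 ± 0.06 in males (adjusted p = 0.604). Hsph1, the heat-inducible HSP110, had larger folds of 0.60 ± 0.25 in males and 0.53 ± 0.25 in females but wider spread, and it did not pass in either sex (adjusted p = 0.104 and 0.168). It was called in females in 1 of 11 alternatives other than leaving out 1 library, and in males in 0 of 11. With 1 library left out it was called in 0 of 12 fits in females and 1 of 12 in males. Its lowest, median and highest counts were 9890.0, 12459.8 and 17988 in active males and 4661, 9509.8 and 14996 in inactive males. The low end in inactive males came from replicates 4 and 5, the same libraries that were lowest for Hspa1a and Hspa1b.

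The other HSP70 genes had small folds. Hspa9, which pulls proteins into mitochondria, was 1.13-fold higher in active than in inactive females (adjusted p = 0.00933, limma), a small change over a small spread. In males its log2 fold was 0.03 ± 0.05 with an adjusted p of 0.742. Hspa2 did not pass in either sex, with log2 folds of 0.02 ± 0.14 in males and -0.19 ± 0.14 in females.

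Of the 6 J-domain genes 2 were called, and these were the same in both sexes. Dnaja1, an HSP40 that hands client proteins to Hspa8, had 19570.3, 24162 and 34142 normalized counts (lowest, median and highest) in active males and 12000.5, 19039 and 23209 in inactive males. It had 12003, 12692 and 14660.0 in active females and 7334, 8783 and 14164 in inactive females. The groups overlapped in both sexes, in females because of replicate 6 of the inactive period. Its log2 fold was 0.52 ± 0.17 in males (adjusted p = 0.0376, limma) and 0.50 ± 0.17 in females (adjusted p = 0.0473). Both calls lay close to the threshold. With each of the 12 libraries compared left out in turn, the call held in 6 of 12 fits in males and 1 of 12 in females, and the adjusted p over all alternatives reached 0.096 in males and 0.11 in females.

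Dnajb2, a J-domain protein that sends HSP70 clients to degradation, was steadier. It had 1572 ± 282 normalized counts in active males and 1071 ± 164 in inactive males (mean ± SD, n = 6 each), and 1251 ± 36.1 in active females and 966 ± 101 in inactive females. Every active-female library was above every inactive-female one. Its log2 fold was 0.55 ± 0.10 in males (adjusted p = 0.000426, limma) and 0.38 ± 0.10 in females (adjusted p = 0.00797). Dnajb1, the classic heat-inducible HSP40, did not pass, with log2 folds of 0.53 ± 0.28 in males (adjusted p = 0.212) and 0.23 ± 0.28 in females (adjusted p = 0.668). Its counts were 1728, 2458 and 4677 in active males against 1052, 2162 and 3309.9 in inactive males (lowest, median and highest). Dnaja2, Dnajb4 and Dnajb6 had log2 folds between -0.09 and 0.28 in the 2 sexes and did not pass. In females Dnaja2 and Dnajb4 were each called in 1 of 11 alternatives other than leaving out 1 library. In males Dnajb6 was called lower in 1 of 11.

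Both cytosolic HSP90 genes were called in both sexes. Hsp90aa1, the inducible form, had a lowest, median and highest count of 25848, 31505 and 45037 in active males and 16938, 25425 and 30542 in inactive males. In females it had 20558, 22590.2 and 26193 in the active period and 11037, 11398 and 14564 in the inactive period. All 6 active-female libraries lay above all 6 inactive-female ones, while the male groups overlapped. The female change was 1.94-fold, with the largest log2 fold of the 39 genes in that comparison (0.96 ± 0.15, adjusted p = 0.000157, limma). In males it was 1.38-fold (log2 fold 0.47 ± 0.15, adjusted p = 0.042), and that call was lost in 6 of 12 fits that left out 1 male library, with an adjusted p of up to 0.159 over all alternatives.

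Hsp90ab1, the constitutive form, had 49001, 55814 and 78455 normalized counts in active males and 37159, 46483 and 55479 in inactive males (lowest, median and highest). Female counts were 35556, 39932 and 43225 in the active period and 23342, 24856 and 31028 in the inactive period. The female groups did not overlap. The log2 fold was 0.38 ± 0.11 in males (adjusted p = 0.0161, limma) and 0.61 ± 0.11 in females (adjusted p = 0.000228). The male call was lost in a fit of only the groups compared (adjusted p = 0.0688), and the adjusted p over all alternatives was 0.00214 to 0.0688. Trap1, the mitochondrial HSP90, did not pass in either sex, with log2 folds of 0.03 ± 0.05 in males and 0.05 ± 0.05 in females. Its 95% intervals of -0.07 to 0.14 and -0.05 to 0.15 were narrow.

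The HSP90 co-chaperones were called most often, with 7 of 8 higher in each sex. Stip1, the HOP adaptor that joins HSP70 to HSP90, had 3983, 4908 and 6069 normalized counts in active males and 2648, 3161 and 4096 in inactive males (lowest, median and highest). It had 3617, 3879 and 4197 in active females and 1993, 2277 and 3088 in inactive females. The female groups did not overlap, and in males only the highest inactive library reached the active range. Stip1 had a log2 fold of 0.61 ± 0.12 in males (adjusted p = 0.00125, limma) and 0.74 ± 0.12 in females (adjusted p = 0.000104). Ahsa1, the activator of the HSP90 ATPase, had 3964 ± 841 in active males and 2661 ± 441 in inactive males (mean ± SD, n = 6 each), and 2592 ± 173 in active females and 1649 ± 189 in inactive females. Its groups too parted without overlap in females.

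Chordc1 encodes an HSP90 partner that is itself a heat shock gene. Its promoter is shown because it carries the longest run of exact heat shock repeats among the members searched (chr9:18292017-18292296, plus strand, RefSeq, GRCm38.p6), in capitals, across the transcription start.
Chordc1: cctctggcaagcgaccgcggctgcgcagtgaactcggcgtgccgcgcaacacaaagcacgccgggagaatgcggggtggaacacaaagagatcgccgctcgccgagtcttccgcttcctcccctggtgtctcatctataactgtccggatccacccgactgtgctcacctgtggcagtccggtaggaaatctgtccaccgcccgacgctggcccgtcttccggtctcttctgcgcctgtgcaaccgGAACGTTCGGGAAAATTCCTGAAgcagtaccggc
Chordc1 had 3449, 4255 and 5316 normalized counts in active males and 2129.9, 2738 and 3725 in inactive males (lowest, median and highest). Female values were 3809.9, 4248 and 4844 in the active and 2181, 2369 and 3897 in the inactive period. In females a single inactive library, replicate 6, lay within the active range. The log2 fold was 0.60 ± 0.15 in males (adjusted p = 0.0116, limma) and 0.73 ± 0.15 in females (adjusted p = 0.00219).

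The other co-chaperones had smaller log2 folds. Fkbp4, the immunophilin of steroid receptor complexes, had log2 folds of 0.46 ± 0.09 in males (adjusted p = 0.000741, limma) and 0.52 ± 0.09 in females (adjusted p = 0.000106). Cacybp, which binds the ubiquitin ligase SIAH1 and shares a domain with the HSP90 partner SGT1, had 0.42 ± 0.11 and 0.56 ± 0.11 in the same order. Ptges3, the p23 protein that closes HSP90 around its client, had 0.28 ± 0.08 and 0.34 ± 0.08, and all 3 genes were called in both sexes. The male Ptges3 call was lost in 4 of 12 fits that left out 1 male library, those without active replicate 2 or 6 or inactive replicate 4 or 5. Cdc37 was called in males (0.23 ± 0.06, adjusted p = 0.0128) and not in females (0.08 ± 0.06, adjusted p = 0.454). St13, the HIP protein that stabilises HSP70 with bound client, was called in females (0.35 ± 0.06, adjusted p = 0.000128) and not in males (0.09 ± 0.06, adjusted p = 0.303).

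None of the 3 genes of the small heat shock group was called in either sex in the fit over all 24 libraries. Hspb1, the HSP27 that binds unfolded proteins and actin, had the largest male log2 fold of the 39 genes, 0.82 ± 0.29, but did not pass (adjusted p = 0.0566, limma). Its lowest, median and highest counts were 198, 259 and 645 in active males and 102, 173 and 351 in inactive males. They were 218, 361 and 396 in active females and 203, 217 and 252 in inactive females, with a log2 fold of 0.58 ± 0.29 (adjusted p = 0.196). A single active-male library, replicate 2, set the high end in active males. The SD of the log2 counts of Hspb1, pooled over periods, was 0.68 in males and 0.25 in females. Hspb1 was called in females in 1 of 11 alternatives other than leaving out 1 library, and in 0 of 12 that did so. In males it was called in 3 of 11 and 3 of 12. Bag3, which links HSP70 to Hspb8 and to autophagy, had log2 folds of 0.38 ± 0.19 in males and 0.07 ± 0.19 in females, and Hspb8 had 0.22 ± 0.14 and 0.11 ± 0.14.

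The mitochondrial chaperonin did not pass either. Hspd1 and Hspe1 lie head to head on opposite strands. A run of 2 overlapping heat shock elements lies in the window of Hspe1 and in that of 1 of the 2 annotated starts of Hspd1, which is 216 bases from the start of Hspe1. The run is shown in capitals in the promoter of Hspe1 (chr1:55087898-55088177, plus strand, RefSeq, GRCm38.p6).
Hspe1: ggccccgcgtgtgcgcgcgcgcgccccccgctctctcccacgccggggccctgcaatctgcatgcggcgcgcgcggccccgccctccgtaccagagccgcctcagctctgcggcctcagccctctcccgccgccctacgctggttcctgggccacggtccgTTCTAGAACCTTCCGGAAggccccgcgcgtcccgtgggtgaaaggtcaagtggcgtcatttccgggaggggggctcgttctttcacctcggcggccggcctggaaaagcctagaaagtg
Hspd1 had log2 folds of 0.07 ± 0.07 in males (adjusted p = 0.481, limma) and 0.17 ± 0.07 in females (adjusted p = 0.0768). Hspe1 had 0.26 ± 0.11 in males (adjusted p = 0.099) and 0.16 ± 0.11 in females (adjusted p = 0.366).

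Of the 8 CCT subunits 3 were called in males and 6 in females, all higher and all by small amounts. Cct3 had 5687 ± 763 normalized counts in active males and 4589 ± 405 in inactive males (mean ± SD, n = 6 each), with 3925 ± 128 in active females and 3156 ± 164 in inactive females. Its log2 fold of 0.30 ± 0.07 in males (adjusted p = 0.00228, limma) and 0.32 ± 0.07 in females (adjusted p = 0.001) was the largest of the ring in both sexes. Cct5 and Cct7 were called in both sexes with log2 folds of 0.23 to 0.24, and the male Cct7 call was lost in a fit of only the groups compared (adjusted p = 0.0781, with 0.0021 to 0.0781 over all alternatives). Tcp1, Cct6a and Cct8 were called in females alone, with log2 folds of 0.20 to 0.23 there and 0.06 to 0.08 in males. Cct2 and Cct4 were called in neither. Cct3, Cct5, Cct7 and Cct8 had every active-female library above every inactive-female one.

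Hsf1, the transcription factor of the heat shock response, did not pass in either sex. It had 774 ± 36.2 normalized counts in active males and 695 ± 71.6 in inactive males (mean ± SD, n = 6 each), a log2 fold of 0.16 ± 0.07 with a limma adjusted p of 0.133. In females it had 713 ± 43.2 in the active and 619 ± 65.5 in the inactive period, a log2 fold of 0.21 ± 0.07 with an adjusted p of 0.051. Its RNA level does not show the activity of the protein, which is set largely after translation.

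A heat shock element, GAANNTTCNNGAA or its reverse complement TTCNNGAANNTTC, so that both strands were covered and matches could overlap, was sought between 250 bases before and 50 bases after the annotated starts. It was present in 5 of the 32 members with a promoter sequence at hand (15.6%), against 179 of 27025 genes (0.662%). The 5 were Chordc1, Dnajb6, Hspd1, Hspe1 and Hsph1. Hspd1 and Hspe1 count as 2 genes here but share 1 run, read from opposite strands. Of the 5 genes Chordc1 was called for the period in both sexes, and the other 4 were called in neither. Only exact matches were counted, so a promoter with imperfect repeats counts as having none. Hspa1a, Hspa1b, Dnajb1, Hspb1 and Bag3 had no exact match, which does not show that their promoters lack sites for HSF1. The element of Hsph1, in capitals, lies just after the start (chr5:149636286-149636565, minus strand, RefSeq, GRCm38.p6).
Hsph1: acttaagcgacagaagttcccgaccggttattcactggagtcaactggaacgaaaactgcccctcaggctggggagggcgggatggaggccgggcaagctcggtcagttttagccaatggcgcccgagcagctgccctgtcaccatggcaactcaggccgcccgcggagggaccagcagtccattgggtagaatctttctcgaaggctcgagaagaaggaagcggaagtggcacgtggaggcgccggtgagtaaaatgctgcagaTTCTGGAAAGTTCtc
The E-box CACGTG, which clock activators bind, was present in 2 of the 32 members (6.25%) and in 8.09% of all genes. Hspa8, Hsp90aa1, Hsp90ab1, Hspa9, Hsf1, Cct4 and St13 were not part of this search.

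Beyond the 39 genes, 89 further folding and heat shock genes were listed, of which 87 were tested. In males 14 were higher and 6 lower in the active than in the inactive period, and in females 15 were higher and 4 lower. Their median log2 fold was 0.08 in males and 0.03 in females. The clearest were Clpx, the unfoldase of the mitochondrial protease ClpXP, in females (0.71 ± 0.08, adjusted p = 7.86e-08, limma), and Dnajc11, a J-domain protein of the mitochondrial outer membrane, in males (0.26 ± 0.05, adjusted p = 0.000457). Dnaja3, a mitochondrial J-domain protein, and Hspa13, an HSP70 of the microsomes, were higher in active than in inactive females by log2 folds of 0.26 ± 0.04 and 0.40 ± 0.08. Dnajc6, a J-domain protein of clathrin uncoating, was lower in active than in inactive males (-0.42 ± 0.08). Of the 15 further HSP90 co-chaperones 5 were higher and 0 lower in each sex. Of the 10 prefoldin and CCT assistants 0 were higher in either sex, and 1 was lower in females, the prefoldin subunit Pfdn2 (log2 fold -0.29 ± 0.06, adjusted p = 0.000941, limma), named here after its value was seen.

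Whether the period change differed between males and females was tested as the male change minus the female change. Of the 39 genes 0 were called, where 2.71% of all tested genes were called (limma). At an unadjusted p under 0.05 there were 7, where 18.7% of all tested genes passed that mark. In all 7 the difference was below 0, but their number is near that share, and the direction was not counted over all tested genes. Hsp90aa1 had the largest of these differences, -0.49 ± 0.22 (adjusted p = 0.224), and St13 (-0.25 ± 0.09, adjusted p = 0.0953) and Dnajb6 (-0.19 ± 0.06, adjusted p = 0.0738) had the smallest p. Dnajb6 had log2 folds of -0.09 ± 0.04 in males and 0.10 ± 0.04 in females, neither of them called. The recovered reads gave 0 calls with edgeR and 1 call with DESeq2, which was Dnajb6. Without active-male replicate 2 limma called 1 gene, St13. The genes called in 1 sex alone were thus not shown to differ between the sexes in their period change.

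The stress-inducible genes varied widely between male libraries of the same group. The summed count of Hspa1a and Hspa1b was 1094 to 11726 over the 6 active-male libraries and 557 to 8593 over the 6 inactive-male ones. It was 908 to 2276 in active females and 1195 to 2171 in inactive females. Hspa1a varied 13.8-fold among active males and 15.4-fold among inactive males, but 1.98-fold among active females and 2.77-fold among inactive females. Among tested genes the pooled SD of Hspa1a and Hspa1b lay at the 99.3 and 99.0 percentile. The male SD was larger than the female SD in 31 of the 39 genes (79.5%), where it was larger in 65.1% of all tested genes. The median ratio of male to female SD was 1.59 for the members and 1.17 for all tested genes.

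**Figure D3:**
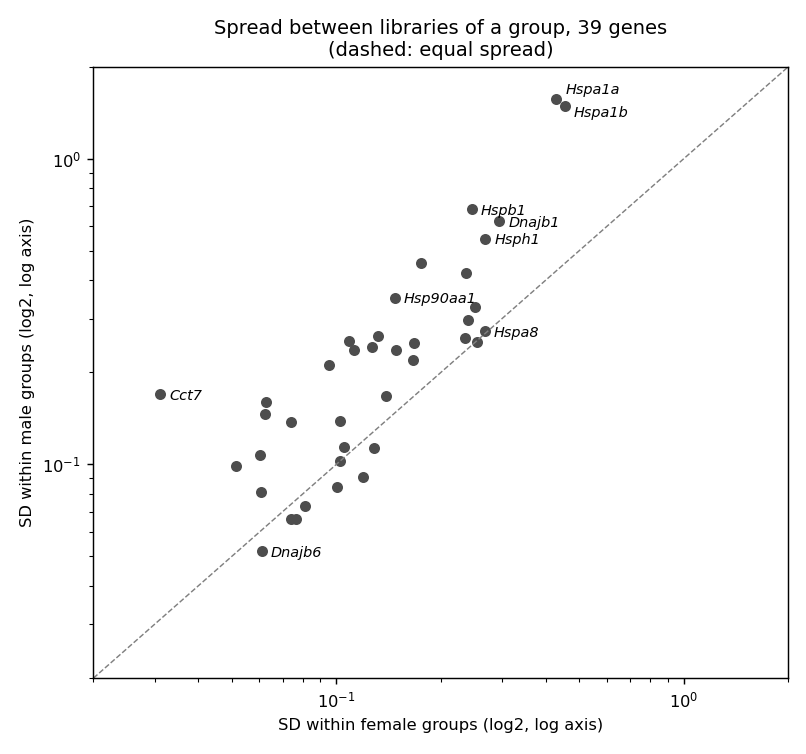
SD of log2 values between libraries of a group, pooled over the 2 male groups (vertical) and over the 2 female groups (horizontal), on log axes, for the 39 genes; the dashed line marks equal spread. Hspa1a lies at 1.57 in males and 0.43 in females, and 31 of the 39 genes lie above the line.

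The chaperones varied together within a group, so that a few libraries set the extremes of many genes. Active-male replicate 2 was the highest of its group in 29 of the 39 genes and replicate 1 the lowest in 21. Inactive-male replicate 1 was highest in 26 and replicate 5 lowest in 31. Among active females replicate 4 was highest in 21 genes, and among inactive females replicate 6 was highest in 32. Replicate 6 of the inactive females stood out for Dnaja1, at 14164 against a median of 8783, and for Chordc1, at 3897 against a median of 2369. The immediate early genes were high in other libraries as well. Active-male replicate 6 had the highest immediate early sum of its group and a pair sum of Hspa1a and Hspa1b of 9969.6. The highest pair sum, 11726 in active-male replicate 2, went with an immediate early sum of 5924, and the highest immediate early sum, 29681 in inactive-male replicate 6, went with a pair sum of 5569. With the library that was highest in most members left out of each group, an alternative chosen after seeing the data, 15 genes were called for the period in males and 24 in females, all higher. The libraries left out were picked by the members' own values, so these counts are not independent support. The calls over all tested genes were not counted for this alternative.

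**Figure D4:**
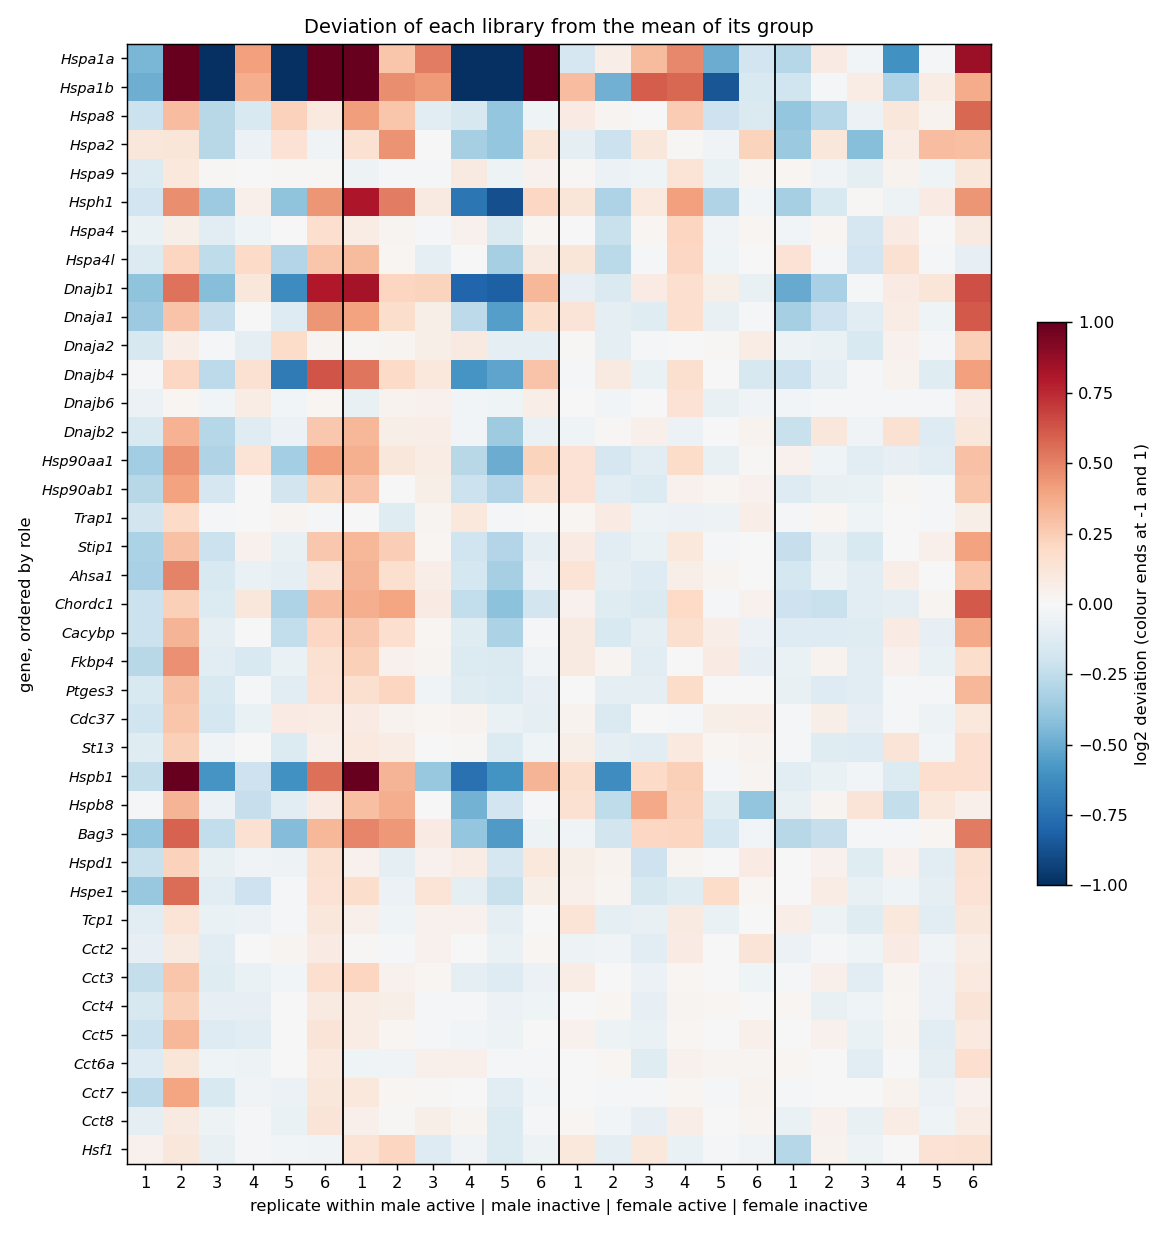
Log2 deviation of each library (columns, by group and replicate) from the mean of its group for the 39 genes (rows, by role); red is above and blue below the mean, and the colour ends at -1 and 1. Whole columns share a colour, such as active-male replicate 2, above its group mean in 39 of 39 genes, and inactive-male replicate 5, above it in 0.

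The share of the pair's reads assigned to Hspa1b differed little within a sex. It was 73 ± 2.2% in active males, 70 ± 2.3% in inactive males, 78.9 ± 4.5% in active females and 78.8 ± 3.2% in inactive females (mean ± SD, n = 6 each). Given the sequence that the genes share, this is a property of the counts as assigned.

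Under the authors' size factors most chaperones were higher in male than in female kidneys in both periods, whereas with equal totals 14 of the 39 in the active and 16 in the inactive period were. With equal totals 2635 of all 17333 tested genes were higher in males in the active period and 2051 in the inactive period. In the active period 28 of the 39 genes were higher and 0 lower in males than in females, where 30.1% of all tested genes were higher, 30.5% were lower and 60.6% were called in either direction (limma). In the inactive period 28 were higher and 1 was lower, Hspa2, where 27.9% of all tested genes were higher, 27.8% were lower and 55.7% were called. The calls shared 26 genes between the periods, 92.86% of those in the active and 89.66% of those in the inactive period. The same overlap was not counted for all tested genes. The members' median log2 fold was 0.38 in the active and 0.45 in the inactive period, where that of all tested genes was -0.05 and -0.04. No male library overlapped a female one in 22 of the 39 genes in the active period and 19 in the inactive period, all higher in males, where 20.2% and 18.6% of all tested genes were so.

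Markers of other kidney cells differed between the sexes in the same comparisons. All 3 podocyte and all 3 endothelial markers were lower in males in both periods, and of 5 immune markers 3 were lower in the active and 4 in the inactive period. The summed podocyte markers were 7370 to 8757 normalized counts in active males and 13941 to 15144 in active females, and 7315 to 8988 in inactive males and 12477 to 14378 in inactive females. The summed endothelial markers were 4286 to 5365 in active males and 6434 to 8220 in active females, and 3422 to 5432 in inactive males and 5787 to 7856 in inactive females. The immune sums were 726 to 1015 in active males and 1321 to 1756 in active females, and 512 to 980 in inactive males and 1039 to 1608 in inactive females. None of these sums overlapped between the sexes, and none of these markers was at 0 throughout a group. Both markers of the loop of Henle were lower in males in the active period and 1 of 2 in the inactive period. Of 3 collecting duct markers 2 were lower in males in each period, and 1 was higher in the active and 0 in the inactive period. Of 2 distal tubule markers 1 was lower and 0 higher in each period. Of 3 smooth muscle markers 1 was lower in the active and 2 in the inactive period, and 0 were higher. Of 5 proximal tubule markers 2 were higher and 3 lower in males in each period. Of the 11 immediate early genes 0 were higher and 2 lower in males in the active period, and 8 were higher and 0 lower in the inactive period. The part of these cell types and of the immediate early genes in the sex differences was not tested.

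These counts depend on the scaling. The normalized totals were 36000000 to 39500000 counts in male libraries and 29600000 to 32400000 in female ones, although the recovered reads were similar. With every library scaled to the same total, the median of all tested genes shifted by -0.27 (log2) in the active and -0.28 in the inactive period. Then 14 members were higher and 4 lower in males than in females in the active period, and 16 were higher and 2 lower in the inactive period. Of all 17333 tested genes 8821 were then lower in males in the active and 9054 in the inactive period. The members' median log2 fold lay above that of all tested genes by 0.42 in the active and 0.49 in the inactive period. These distances were the same, to 2 digits, under the authors' size factors and with equal totals. Of the members called under the authors' size factors, 14 in the active and 17 in the inactive period were called under every scaling tried.

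**Figure D5:**
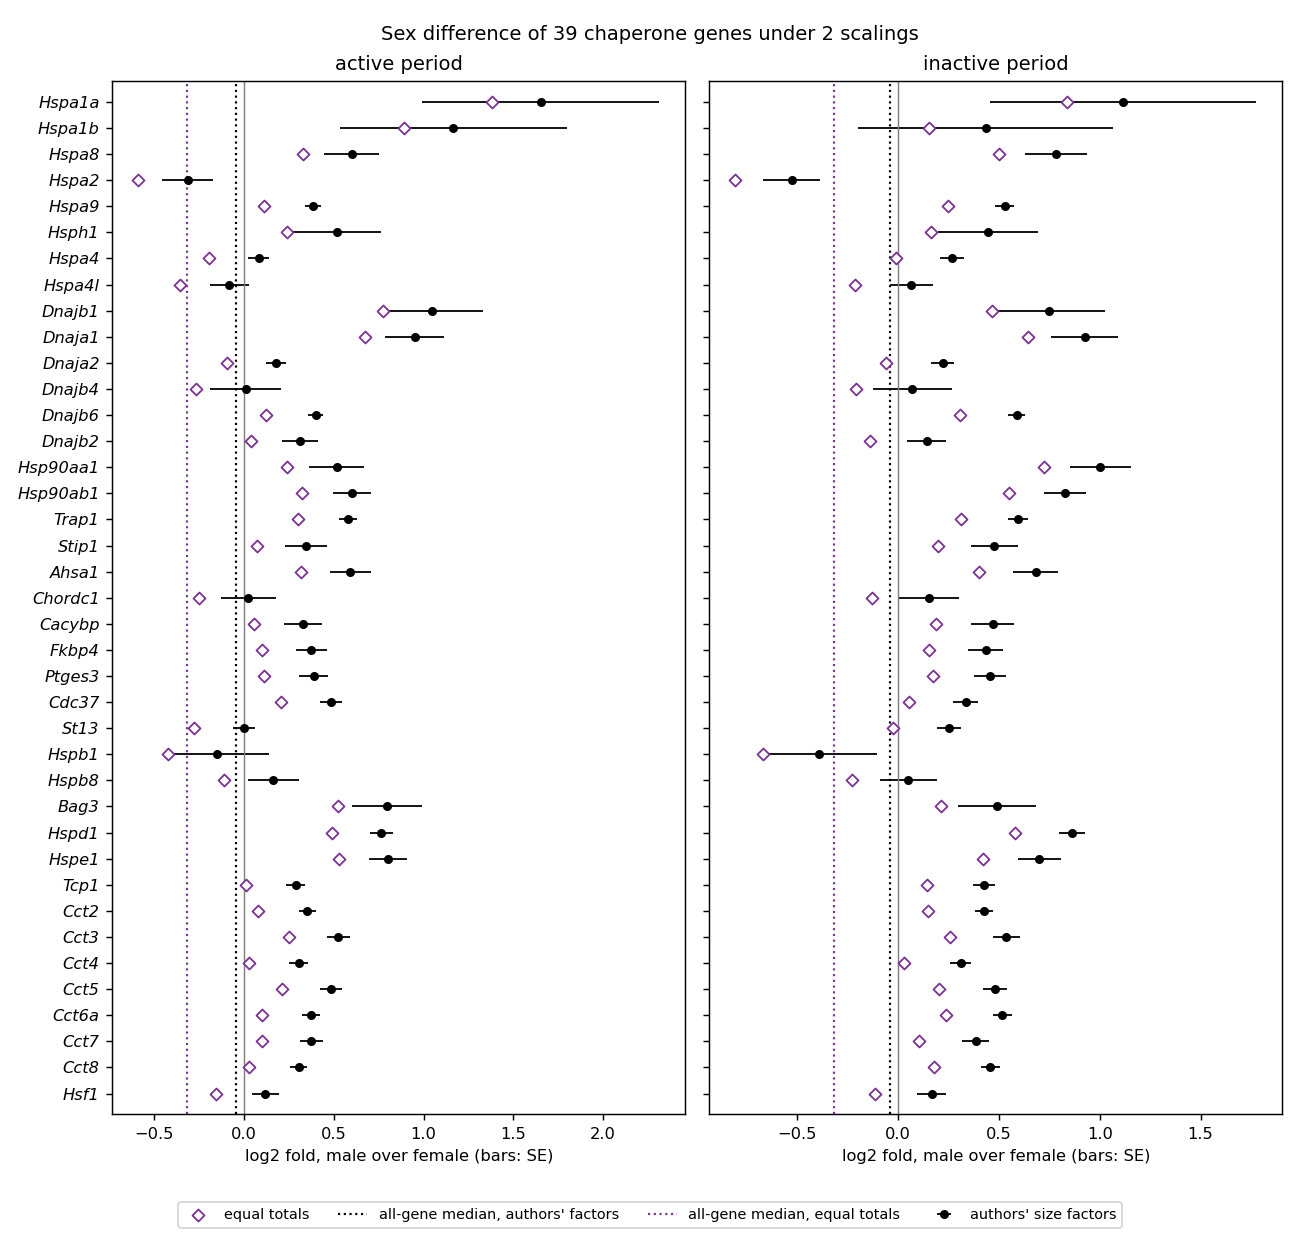
Log2 fold of each of the 39 chaperone genes in males over females, in the active period (left) and the inactive period (right), under the authors' size factors (black, with SE) and with all libraries scaled to equal totals (open diamonds); dotted lines mark the median of all tested genes. Equal totals move every gene to the left by about 0.27 or 0.28, and the mitochondrial Hspd1 and Hspe1 stay to the right of 0 under both.

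The mitochondrial chaperonin showed some of the steadiest sex differences. Hspd1 had a lowest, median and highest count of 32379.5, 36611 and 44185 in active males against 19268, 22695 and 23497 in active females. In the inactive period it had 31897, 36918 and 38657 in males and 18180.2, 19965 and 21874 in females. The sexes did not overlap in either period. The log2 fold was 0.76 ± 0.07 in the active (adjusted p = 2.51e-11, limma) and 0.86 ± 0.07 in the inactive period (adjusted p = 2.37e-12), and Hspe1 had 0.80 ± 0.11 and 0.70 ± 0.11. Trap1 (log2 folds 0.58 ± 0.05 and 0.59 ± 0.05) and Hspa9 (0.38 ± 0.05 and 0.53 ± 0.05), which work in the same organelle, were also higher in males in both periods without overlap. All 4 remained higher in males with equal totals.

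All 8 CCT subunits were higher in males than in females in both periods, with log2 folds of 0.29 to 0.52 in the active and 0.31 to 0.54 in the inactive period, and in none did the sexes overlap. Cct3 had the largest, 0.52 ± 0.07 in the active period (adjusted p = 4.83e-08, limma) and 0.54 ± 0.07 in the inactive period (adjusted p = 4.15e-08). With equal totals the differences shrank to between 0.01 and 0.25 in the active period. Under that scaling Cct2, Cct4, Cct7, Cct8 and Tcp1 were no longer called there, and in the inactive period Cct4 (0.03, adjusted p = 0.562) and Cct7 (0.10, adjusted p = 0.124) were not.

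Both cytosolic HSP90 genes were higher in males in both periods. Hsp90aa1 had a log2 fold of 0.52 ± 0.15 in the active period (adjusted p = 0.00617, limma) and 1.003 ± 0.15 in the inactive period (adjusted p = 9.41e-06), where its male and female libraries did not overlap. Its active-period call did not hold with equal totals (adjusted p = 0.165). Hsp90ab1 had log2 folds of 0.60 ± 0.11 and 0.83 ± 0.11 in the active and the inactive period, without overlap in either. Of the 8 co-chaperones 6 were higher in males in the active period and 7 in the inactive period. With equal totals Ahsa1 and Cdc37 were still called higher in the active period, and Ahsa1 alone in the inactive period. Stip1, Cacybp, Fkbp4 and Ptges3 lost their calls in both periods, and Cdc37 lost its call in the inactive period, under that scaling. Chordc1 was called in neither, with log2 folds of 0.02 ± 0.15 and 0.15 ± 0.15. St13 was called in the inactive period alone, at 0.25 ± 0.06, and this turned to -0.03 with equal totals, under which it was called lower in males in the active period (-0.28, adjusted p = 5.56e-05, limma).

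The HSP70 genes were mixed. Hspa8 was 1.52-fold higher in males than in females in the active and 1.72-fold higher in the inactive period (adjusted p = 0.00191 and 0.000181, limma). With equal totals its active-period call was lost (log2 fold 0.33, adjusted p = 0.0648), and its inactive-period call held (0.50, adjusted p = 0.00681). Under the authors' size factors Hspa2 was the only member called lower in males, and only in the inactive period. It had 176 ± 38.9 normalized counts in inactive males and 255 ± 54.4 in inactive females (mean ± SD, n = 6 each). Its log2 fold there was -0.53 ± 0.14 (adjusted p = 0.00205, limma). In the active period its log2 fold was -0.31 ± 0.14 (adjusted p = 0.0536), and 2 of 3 other scalings called it lower. Hspa4 was called higher in the inactive period (0.27 ± 0.06, adjusted p = 0.000288), and Hspa4l and Hsph1 were called in neither. With equal totals Hspa2 (-0.59), Hspa4 (-0.19) and Hspa4l (-0.36) were called lower in males in the active period. Hspa1a was 3.15-fold higher in males in the active period (log2 fold 1.65 ± 0.66, adjusted p = 0.0359), but that call held in 5 of 12 fits that left out 1 of the libraries compared and was lost with equal totals (adjusted p = 0.0721). It did not pass in the inactive period (1.12 ± 0.66, adjusted p = 0.158). Hspa1b did not pass in either, at 1.17 ± 0.63 and 0.43 ± 0.63. In the inactive period the female ranges of both lay within the male ranges, and in the active period the lowest male library was above the lowest female one.

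Among the J-domain genes Dnaja1 had 25698 ± 5632 normalized counts in active males and 13090.4 ± 1129 in active females (mean ± SD, n = 6 each), without overlap, and a log2 fold of 0.95 ± 0.17 (adjusted p = 4.41e-05, limma). In the inactive period its log2 fold was 0.93 ± 0.17. Dnajb6, whose product holds back the clumping of polyglutamine proteins, was higher in males by 0.40 ± 0.04 and 0.59 ± 0.04 in the active and the inactive period, with the smallest spread of the 39 genes in males. Dnajb1 was higher in males by 1.05 ± 0.28 in the active period and by 0.75 ± 0.28 in the inactive period, where the call held in 6 of 12 fits that left out 1 of the libraries compared and was lost with equal totals. Bag3 was higher in males by 0.80 ± 0.19 and 0.49 ± 0.19, and its inactive-period call (adjusted p = 0.0374) held in 4 of 12 such fits and was lost with equal totals. Dnaja2 was called higher in males in both periods and Dnajb2 in the active period, and these calls too were lost with equal totals. Under the authors' size factors Hspb1 and Hspb8 were not called in either period. With equal totals Hspb1 was called lower in males in the inactive period (-0.67, adjusted p = 0.0483, limma). Hsf1 did not pass either, at 0.12 ± 0.07 (adjusted p = 0.161) and 0.17 ± 0.07 (adjusted p = 0.0524), and its sign turned with equal totals.

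Several of these genes share sequence or exons with others. Of the 16 annotated pseudogenes named after members, Ptges3-ps had the highest mean, 475 normalized counts, and Hspd1-ps3 had 176. The exons of Trap1 overlap those of Dnase1, whose mean was 12545, by 54 bases on the opposite strand, and Tcp1, Dnaja1, Cct6a, Cct7, Cct8 and Hspd1 also overlap a neighbour on the opposite strand in the older GRCm38 annotation. Whether reads were counted by strand is not given in the sources used here, so reads of such partners cannot be told apart.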

How the data were processed

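The deposited table holds a signal for each gene and library that, by its values, is a gene count the authors divided by 1 size factor per library. Trim Galore 0.6.10, Subread 2.0.6 with featureCounts, DESeq2 1.28.1 and a GRCm39 genome appear in the submitters' processing notes. The roles of these tools and the strand setting are not stated in what was used here. Dividing each library by its step gave whole reads for 100% of values (within 0.05), and 31000000 to 39300000 reads per library. No column was left out.

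Genes with a mean of at least 10 (17333) were fitted as log2(value + 1) with limma 3.58.1 in R 4.3.3. The fit had 4 group means over 24 libraries, 20 residual degrees of freedom and a variance prior that was robust and followed the mean. Benjamini-Hochberg adjustment ran over all genes of a contrast. The 5 contrasts were the period in males, the period in females, their difference, and males over females in each period. The fit was tested on simulated data. On the recovered reads edgeR 4.0.16 called 2694 genes for the period in males and 2664 in females, where limma called 2665 and 2592. Other alternatives were pseudocounts of 0.5 and 5, no filter, TMM, upper quartile and equal-total scaling, only the groups compared, a plain prior, DESeq2 1.42.0, the title number as a block and each library left out. Symbols, exon lengths and overlaps came from a GRCm38 annotation.

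The members and lists were chosen with earlier results of these data known. All 39 members are described. Of the other folding genes, up to 3 called genes with the smallest p in each period contrast are named, with clock and immediate early genes as context. One gene that this rule names is not reported here.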

Additional observations from a re-analysis of the deposited data

Results flagged for a closer look

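In each group of 6 libraries, a gene was looked at again where the gap of the highest or lowest library to the next one passed Dixon's 95% critical value for the range of the group. Of 156 combinations of a gene and a group 17 passed, where chance gives about 1 in 20, or 7.8. Genes that vary together are not independent.

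Replicate 6 of the inactive females was the highest of its group in 10 of the 17. It had 590.0 normalized counts of Hspa1a against 344 in the next library, 14564 of Hsp90aa1 against 12265, 31028 of Hsp90ab1 against 25785 and 14164 of Dnaja1 against 9712. It also had 3897 of Chordc1 against 2594, 1163 of Bag3 against 819 and 2607 of Cacybp against 2121. Dnajb4 stood at 2455 against 1885, Dnajb6 at 3135 against 2945 and Ptges3 at 5406 against 4273. The red blood cell sum of this library was the lowest of its group, 1327, and its immediate early sum of 4926 lay within the range of the other 5. The part of either was not tested.

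In active females replicate 4 was highest for Dnajb6, with 3522 against 3170.3 in the next library, and for Ptges3, with 6205 against 5484. Replicate 3 was lowest for the chaperonin genes Hspd1 (19268 against 22318.5), Cct4 (5123 against 5418) and Cct6a (6529.8 against 7116). Replicate 2 was lowest for the small heat shock gene Hspb1, with 218 against 331. In inactive males replicate 5 was lowest for Cct8, with 7004 against 7651. No active-male library was among the 17.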

How the results depend on the processing

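For the period, 11 to 18 members were called in males and 20 to 25 in females over all alternatives (12 to 18 and 20 to 24 with a library left out), all higher in the active period except 1 in males with upper quartile scaling. Of the called members 10 of 15 in males and 20 of 21 in females were called under every alternative. Some members not called over all 24 libraries passed with a library left out. Among them were Hsf1 in 3 of 12 and Hspd1 in 2 of 12 such fits in females. In males Hspa4l and Hspb1 each passed in 3 of 12. The difference between the sexes gave 1 call with DESeq2, 1 with the top library of each group left out (chosen after seeing the data), and 0 to 1 with a library left out, the 1 being without active-male replicate 2. For sex, equal totals gave 18 member calls in each period. Under that scaling 11456 of all 17333 tested genes were called in the active and 11105 in the inactive period. Leaving out a library gave 27 to 30 member calls in the active and 27 to 31 in the inactive period. The title number as a replicate block gave 0 calls for the difference, 28 for sex in the active and 27 in the inactive period. Correlations of same-numbered libraries were -0.104 to 0.124, so the numbers were not taken as pairs. No paired analysis of the period was possible because active and inactive libraries share no number.

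Of all single values of members 127 changed sign under an alternative, 4 of them called. These 4 were male over female log2 folds with equal totals, of Dnaja2 in the active (-0.097) and inactive period (-0.060) and of Hspa4 (-0.011) and St13 (-0.027) in the inactive period. There Hsf1 was at -0.16 and -0.11 and Chordc1 at -0.25 and -0.13 in the active and the inactive period. In the active period Chordc1 was at -0.052 with the upper quartile and -0.040 to 0.085 with a library left out. For the period in females, leaving out a library gave -0.13 to 0.16 for Hspa1a and -0.11 to 0.18 for Hspa1b. Without the top libraries they were at 0.065 and -0.028, and Hspa1b was at -0.0096 with the upper quartile and -0.022 with equal totals. For the period in males Hspa2 was at -0.0063 with the upper quartile, -0.0087 with equal totals, -0.0047 with DESeq2 and -0.059 to 0.11 with a library left out. Hspa9 was at -0.00099 with equal totals and -0.0030 without the top libraries. Trap1 was at -0.0040 without the top libraries and -0.0039 to 0.071 with a library left out. Equal totals by construction lower male values relative to female ones. The cause of the other changes was not tested.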
